A study of Homo sapiens with 12 samples.

Results

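The 47 genes described here are interferon-stimulated genes, whose transcripts are known to accumulate when cells sense interferon. They were chosen by name from the 43828 gene places that the count tables list, and all 47 were found, with exon reads in each of the 12 libraries. RNA had been sequenced from CCRF-CEM cells, an established human T lymphoblast leukemia line. The 4 groups, with 3 libraries each, were untreated parent cells (wild-type, given the solvent DMSO), parent cells given 100 nM camptothecin for 4 h, untreated SLFN11 knockout cells given DMSO, and knockout cells given the same camptothecin dose for the same time. Camptothecin traps topoisomerase I on DNA and so stalls replication forks. SLFN11 is a helicase-like protein whose presence makes tumour cells more sensitive to drugs of this kind, and the title of the series names its part in gene activation under replication stress. The labels state neither the method behind the knockout nor whether 1 clone was used, and they do not say that the 3 libraries of a group were separate cultures, so a p-value here reflects the spread among libraries alone, and that spread may be technical.

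Interferons bind receptors whose kinases, JAK1 and TYK2, phosphorylate STAT proteins. A complex that holds STAT2 and IRF9 then binds the interferon-stimulated response element, or ISRE, in the promoters of interferon-stimulated genes. Interferon regulatory factors such as IRF1 and IRF7 bind related sequences and can act without secreted interferon. The products of these genes sense foreign nucleic acids, degrade RNA, block viral entry and exit, conjugate the ubiquitin-like protein ISG15 and present antigens, and many of them are also expressed at a low level in cells that have seen no interferon.

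The ISRE core is the feature of sequence that these genes are best known to share, and 5 promoters are printed to show it. RefSeq promoter windows of the GRCh38.p14 build, from 250 bases before to 50 bases after the start of the gene, were matched to 37 of the 47 genes, 1 of them by a synonym. The windows of IFIT2, MX2, OAS2, OASL, IRF7, DHX58, IFITM2, USP18, TRIM22 and PML were not analysed here. GAAANNGAAA, searched on both strands with overlapping matches allowed, stood in 21 of the 37 windows (56.8%), against 996 of all 27305 windows (3.65%). The last 170 bases before the start are given below 5′ to 3′ on the strand of the gene, with the bases of ISRE core matches in capitals (TTTCNNTTTC on the opposite strand). ISG15 stands for the family, IFIT5 and IFIH1 had more exon reads after camptothecin in parent cells, and IFIT1 and BST2 had fewer.
ISG15, chr1:1013327-1013496, plus strand: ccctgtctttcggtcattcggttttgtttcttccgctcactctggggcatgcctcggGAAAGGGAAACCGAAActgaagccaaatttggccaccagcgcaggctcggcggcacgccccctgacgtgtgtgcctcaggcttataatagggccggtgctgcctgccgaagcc
IFIT5, chr10:89414398-89414567, plus strand (the last 4 capitals begin a match that runs on past the start): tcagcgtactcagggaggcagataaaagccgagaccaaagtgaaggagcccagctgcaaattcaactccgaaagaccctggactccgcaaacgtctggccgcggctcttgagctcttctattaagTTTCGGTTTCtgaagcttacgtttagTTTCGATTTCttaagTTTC
IFIH1, chr2:162318685-162318854, minus strand: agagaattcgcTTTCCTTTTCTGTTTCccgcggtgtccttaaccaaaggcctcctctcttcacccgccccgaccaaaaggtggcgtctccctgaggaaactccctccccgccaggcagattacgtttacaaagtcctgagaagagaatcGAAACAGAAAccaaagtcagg
IFIT1, chr10:89392453-89392622, plus strand: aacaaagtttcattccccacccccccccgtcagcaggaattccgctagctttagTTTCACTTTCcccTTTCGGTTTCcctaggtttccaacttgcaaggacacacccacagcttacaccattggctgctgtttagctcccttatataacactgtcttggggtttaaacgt
BST2, chr19:17405631-17405800, minus strand: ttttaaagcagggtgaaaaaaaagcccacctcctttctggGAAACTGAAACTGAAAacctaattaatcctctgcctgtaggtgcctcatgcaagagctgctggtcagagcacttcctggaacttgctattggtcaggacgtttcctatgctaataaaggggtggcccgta
The 5 were chosen because they hold the core, and 16 of the 37 windows do not. The GAS element, TTCNNNGAA, which is bound by STAT dimers, stood in 9 of the 37 windows (24.3%, against 7.88% of all windows), among them those of IRF1, IRF9 and OAS1. A kappaB site stood in 8 (21.6%, against 5.72%). These matches describe letters in a window and are not measured binding.

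Depth, the targeted gene and the identity of the cells were checked first. The libraries held 42439957 to 63606344 exon reads in 11 cases and 135592046 in the first parent control library, which stood apart from its group: the chi-square per degree of freedom between its counts and those of the other parent controls was 157.2 to 199.4, where all other pairs of the same group had 5.004 to 18.93. This measure grows with depth and was scaled by library size alone. The name of that library in the labels also follows another pattern than the other names. Whether the library was prepared apart is not stated. Without it, 4 of the 60 calls of the 47 genes in exon reads were lost and 28 appeared, and in intron reads 7 of 46 were lost and 3 appeared. Some of those that bear on a named result are given beside it, and a gene without such a remark may also have been affected. SLFN11 itself was still transcribed in the knockout libraries, at 86.92 ± 1.57 counts per 1000000 (CPM; SD, n = 3) untreated and 89.84 ± 1.72 treated, against 112.3 ± 4.95 and 120.2 ± 2.34 in parent cells, so exon reads alone do not show the loss of the protein. SLFN11 intron reads went the other way, at 73.64 ± 1.05 CPM in untreated parent and 110.3 ± 0.971 CPM in untreated knockout cells. Their log2 difference was 0.58 (adjusted p = 9.43e-07 by edgeR's quasi-likelihood test), against -0.37 in exon reads. The 10 T lymphoblast markers summed to 1090 to 1710 CPM and all were found, lowest in treated parent cells (1090 to 1130) and highest in untreated knockout cells (1700 to 1710). The 5 myeloid markers summed to at most 1.46 CPM. MS4A1 of the B lineage was not listed in the counts, and the other 4 markers summed to 14.5 to 31.5 CPM, nearly all CD79A. CLEC4C and LILRA4 of plasmacytoid dendritic cells, the professional producers of interferon, had 0 exon reads in every library. Their intron reads reached at most 0.1525 and 0.2572 CPM, both in treated parent libraries. The whole list of 5 plasmacytoid dendritic markers summed to 16.3 to 20.1 CPM in untreated and 8.24 to 9.71 CPM in treated parent cells, and to 11.5 to 12.6 and 6.88 to 8.46 CPM in knockout cells. Most of that sum was TCF4 alone. Its group means went from 15.44 to 6.854 CPM in parent and from 10.19 to 5.731 CPM in knockout cells. IL3RA and NRP1 were not called in exon reads. The 5 epithelial and fibroblast markers, with COL1A2 at 0, summed to 1.12 to 2.14 CPM in parent and 6.97 to 8.35 CPM in knockout cells. That difference was EPCAM, with means of 1.298 CPM in untreated parent and 6.759 CPM in untreated knockout cells. The other 4 were under 1 CPM in every library. The part of these shifts in the results below was not tested, and in bulk RNA fewer cells of a type and less RNA per cell cannot be told apart.

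All 47 genes passed the low-count filter on exon reads. Their levels differed widely when expressed as CPM per kilobase of exon and averaged over the 12 libraries. IFITM1, a membrane protein that restricts viral entry, was highest at 152 CPM per kilobase, followed by its relative IFITM2 at 133 and by ISG15 at 84.2. IFI16, a DNA sensor, stood at 52.1 and ADAR, which edits adenosines in double-stranded RNA, at 48. At the other end were OASL at 0.215, IFI27 at 0.141 and IFI44L at 0.0351 CPM per kilobase, and the last of these was covered by only 2 to 56 exon reads in a library. In 26 of the 47 genes the annotation overlaps another gene, and 10 have no stretch of exon of their own. Use of strand in counting is not given in the sources used here, and these genes cannot be told apart from their overlapping neighbours by reads. This touches IFIT1, IFIT2 and IFIT3 (within a model of LIPA), OAS2 and OAS3 (RP1-71H24.1), IFITM1 (within a model of IFITM2), IFITM3, IRF9, TRIM22 and TAP1.

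Camptothecin in parent cells moved the interferon-stimulated genes in both directions. Of the 47 genes, 10 had more exon reads and 14 had fewer (24 of 47, or 51.1%), where 33.9% of all 23546 genes tested were called, 16.8% higher and 17.1% lower. The median log2 change of the 47 was 0.02, against 0.01 over all genes tested, so the genes did not share a direction. In 12 genes every treated library was above every untreated one and in 16 below, where 22.7% and 22.1% of all genes tested were so separated. IRF7, a transcription factor that drives interferon genes, and the RNA sensor IFIH1 were among those that rose, while all 4 membrane restriction factors fell.

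**Figure D1:**
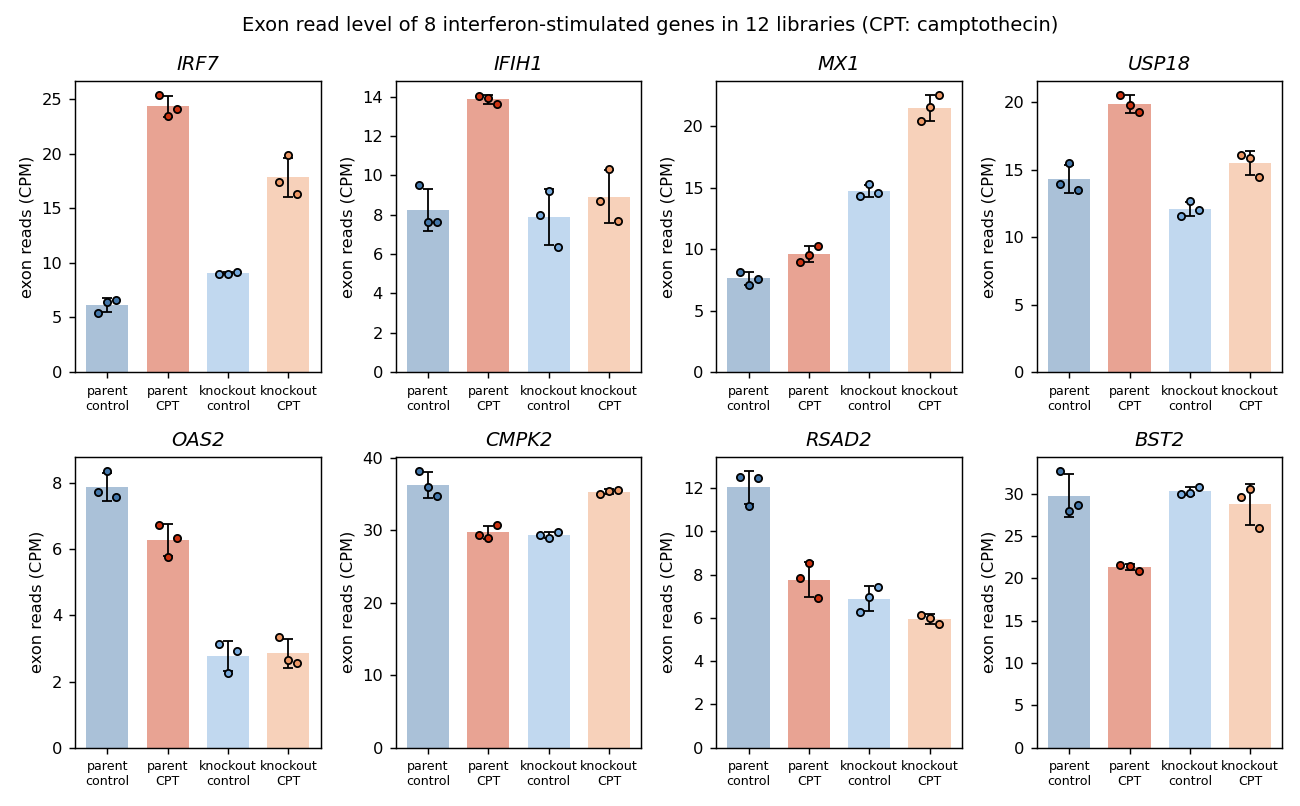
Exon reads of 8 interferon-stimulated genes in CPM (y axis, linear, from 0) for the 4 groups, with a point for each library, a bar for the mean of 3 libraries and an error bar of 1 SD. IRF7 was higher in every treated library than in any untreated one, at 16.3 to 25.4 CPM, OAS2 was lower in every knockout library, and BST2 was low in treated parent cells alone.

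Among the transcription factors, IRF7 (chr11:612552-615998 in hg19) had the largest change of the 47 genes in parent cells. Its exon reads were 5.44, 6.46 and 6.57 CPM in the untreated parent libraries and 25.4, 23.5 and 24.1 CPM after camptothecin. Every treated library was far above every untreated one, a 3.97-fold rise (log2 change 1.99 ± 0.10 (SE), adjusted p = 1.55e-10 by edgeR's quasi-likelihood test, as for every adjusted p of a gene that follows). STAT2, a subunit of the ISRE-binding complex, rose by 0.28 ± 0.06 on the log2 scale (adjusted p = 0.000894) and IRF1 by 0.17 ± 0.05 (adjusted p = 0.0147). IRF9, the DNA-binding subunit of that complex, had a log2 change of 0.11 (adjusted p = 0.456). The IRF1 call was lost when any 1 of 3 parent libraries was left out.

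The nucleic acid sensors split. IFIH1, also known as MDA5, a helicase that binds long double-stranded RNA, was at 9.49, 7.61 and 7.65 CPM in untreated and 14.0, 13.9 and 13.6 CPM in treated parent cells. The groups did not overlap and the gene rose by 0.74 ± 0.13 on the log2 scale (adjusted p = 0.000362). DDX60 (log2 change -0.44, adjusted p = 3.75e-05) and DHX58 (-0.27, adjusted p = 0.0052), a helicase and a regulator of the same RNA-sensing family, fell. DDX58, the RNA sensor RIG-I, had a log2 change of -0.13 (adjusted p = 0.298). IFI16 was at 434, 254 and 250 CPM in untreated and 168, 170 and 167 CPM in treated parent cells. The first of these libraries was far above the other untreated ones, and the fall of 0.89 ± 0.17 (adjusted p = 0.00163) was 0.58 (adjusted p = 6.78e-12) without it.

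Within the IFIT family, whose proteins bind viral RNA ends, neighbours on chromosome 10 moved apart. IFIT1 went from 2.81, 2.08 and 2.52 CPM to 0.756, 1.33 and 1.32 CPM, a fall of 1.13 ± 0.24 on the log2 scale (adjusted p = 0.00125). IFIT5 went from 10.1, 8.10 and 8.49 CPM to 13.3, 12.6 and 12.4 CPM, a rise of 0.52 ± 0.10 (adjusted p = 0.000746). Neither pair of groups overlapped. None of the 4 OAS genes, which make the activator of RNase L, was called in parent cells, with log2 changes of -0.33 to 0.59.

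The 4 membrane restriction factors all fell: IFITM1 by 0.44 ± 0.06 (adjusted p = 4.78e-05), IFITM2 by 0.57 ± 0.09 (adjusted p = 0.000164), IFITM3 by 0.36 ± 0.11 (adjusted p = 0.0143) and BST2 by 0.48 ± 0.08 (adjusted p = 0.000104), all on the log2 scale. The IFITM3 call was lost in 4 of 18 alternatives, among them those without the second untreated or the second treated parent library. BST2, or tetherin, holds budding virions at the cell surface. Its values were 32.7, 28.0 and 28.6 CPM untreated and 21.6, 21.5 and 20.9 CPM treated. IFITM2 was at 224, 167 and 175 CPM untreated and at 127, 130 and 125 CPM treated. In both genes each treated library was below each untreated one, and without the first parent control library IFITM2 fell by 0.42 (adjusted p = 1.64e-06).

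Of 7 antiviral GTPases and RNA or nucleotide enzymes, MX1 rose while MX2, RSAD2 and CMPK2 fell. MX1 and MX2 are related GTPases that bind viral nucleoprotein complexes or capsids. MX2 was at 26.9, 23.4 and 22.2 CPM untreated and 16.5, 16.5 and 15.8 CPM treated, a fall of 0.58 ± 0.08 (adjusted p = 2.39e-05). RSAD2, or viperin, makes a chain-terminating nucleotide, and went from 12.5, 11.2 and 12.5 CPM to 7.83, 8.52 and 6.91 CPM, a fall of 0.63 ± 0.10 (adjusted p = 0.000142). CMPK2, a mitochondrial nucleotide kinase, lies next to RSAD2, with overlapping 5′ ends, and fell by 0.29 ± 0.06 (adjusted p = 0.00121). MX1 had a log2 change of 0.33 ± 0.09 (adjusted p = 0.00716).

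Enzymes that add or remove ISG15, ubiquitin or ADP-ribose were higher or not called. USP18, which strips ISG15 from proteins and damps the interferon receptor, rose by 0.47 ± 0.08 (adjusted p = 0.000185), DTX3L by 0.30 ± 0.07 (adjusted p = 0.0017) and HERC6 by 0.32 ± 0.11 (adjusted p = 0.0317). ISG15 itself was at 36.1, 62.0 and 56.9 CPM untreated and 56.0, 55.5 and 53.9 CPM treated. The first untreated library was the low one, the groups overlapped, and the log2 change was 0.10 ± 0.15 (adjusted p = 0.673). IFI27 was covered by at most 66 exon reads in a library. It was at 0.400, 0.344 and 0.474 CPM untreated and 1.04, 0.599 and 0.733 CPM treated, a rise of 0.97 ± 0.33 (adjusted p = 0.0335). Without the first parent control library that call was lost (adjusted p = 0.065), as it was when any 1 of 3 other parent libraries was left out. HERC6 lost its call when any 1 of 4 parent libraries was left out. IFI44 (log2 change -0.38, adjusted p = 0.00834), the nuclear body protein SP100 (-0.36, adjusted p = 0.00376) and the immunoproteasome subunit PSMB9 fell. PSMB9 was at 51.7, 34.6 and 34.8 CPM untreated and 28.4, 29.5 and 26.4 CPM treated. Its fall was 0.53 ± 0.13 (adjusted p = 0.00487), and 0.30 (adjusted p = 0.000452) without the first parent control library.

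With all 12 libraries, knockout cells had fewer calls than parent cells and those were mostly higher. Camptothecin left 10 of the 47 genes higher and 3 lower (13 of 47, or 27.7%), where 16.6% of all genes tested were called, 7.3% higher and 9.28% lower. The median log2 change was 0.15, against 0.02 over all genes. Treated and untreated libraries did not overlap in 19 genes that were higher and 11 that were lower (18.9% and 19.6% of all genes tested). Scaling by library size alone moved the median of all genes to 0.17 and the split to 22 higher and 1 lower, while the median of the 47 lay 0.13 above that of all genes under both scalings. Without the first parent control library, which this comparison meets only through the shared dispersion and scaling, 17 were higher and 9 lower, where 13% and 14.3% of all genes tested were called in that fit. In parent cells the same fit ended 1 of the 24 calls and added 5, where 4609 of all 24319 genes tested were higher and 4224 lower. The numbers of calls in the 2 genotypes thus lay much closer together in that fit. DTX3L, IFIT5, IRF7, MX1 and USP18 were higher after camptothecin in both genotypes, and DDX60, DHX58 and IFI16 were lower in both. IFI16 was near the threshold in knockout cells (adjusted p = 0.0488) and lost the call in 11 of 19 alternative analyses. Without the first parent control library its log2 change there was -0.54 (adjusted p = 5.12e-12). In intron reads of knockout cells it was -0.38 (adjusted p = 0.00154), a call kept in all 18 alternatives.

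IRF7 rose in knockout cells as well, from 8.98, 9.0 and 9.13 CPM before to 17.4, 19.8 and 16.3 CPM after camptothecin. All treated libraries were above all untreated ones, and the log2 change was 0.98 ± 0.09 (adjusted p = 1.18e-06). IFIT2, an RNA-binding member of the IFIT family, was at 0.992, 0.670 and 1.09 CPM untreated and at 2.11, 1.49 and 2.09 CPM treated. The groups did not overlap and the gene rose by 1.04 ± 0.24 (adjusted p = 0.00613). In parent cells IFIT2 had a log2 change of 0.31 (adjusted p = 0.323), and knockout minus parent was 0.74 ± 0.33 (adjusted p = 0.227).

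DTX3L, a ubiquitin ligase that works with PARP9, was at 78.8, 82.1 and 78.0 CPM in untreated and 111, 112 and 117 CPM in treated knockout cells, a rise of 0.51 ± 0.07 (adjusted p = 3.25e-05). IFIT5 was at 5.93, 5.16 and 5.89 CPM untreated and 7.78, 8.68 and 8.57 CPM treated, a rise of 0.56 ± 0.11 (adjusted p = 0.00139). MX1 was at 14.3, 15.3 and 14.6 CPM untreated and at 20.4, 21.5 and 22.5 CPM treated, a rise of 0.55 ± 0.08 (adjusted p = 0.00021). None of these 3 genes overlapped between the groups. TRIM25, a ubiquitin ligase that modifies RIG-I (log2 change 0.42, adjusted p = 0.00126), USP18 (0.36, adjusted p = 0.00587), OAS3 (0.32, adjusted p = 0.0269), CMPK2 (0.27, adjusted p = 0.00575) and PARP14 (0.20, adjusted p = 0.0494) made up the rest. OAS3 and PARP14 lost their call in 5 of 18 and 10 of 19 alternatives. Both kept it without the first parent control library (adjusted p = 8.51e-05 and 0.000254). No membrane restriction factor was called in exon reads of knockout cells, with log2 changes of -0.27 to -0.08, but without the first parent control library IFITM1 and IFITM2 were, and in intron reads BST2, IFITM1 and IFITM2 fell, as described below.

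**Figure D2:**
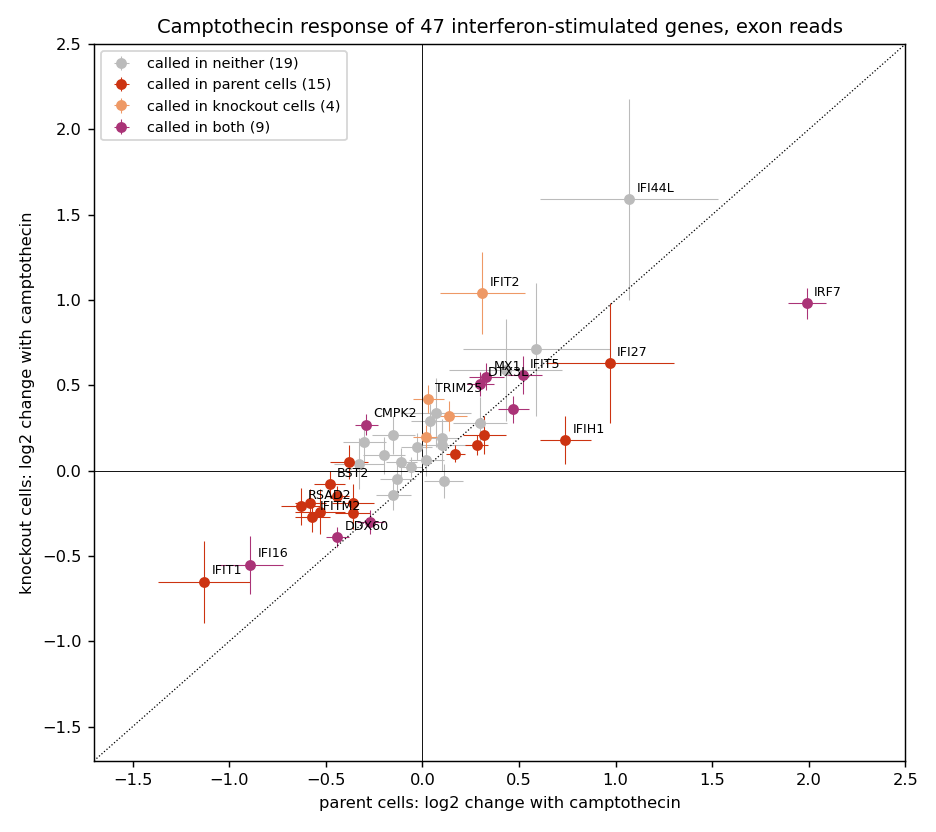
Log2 change in exon reads after camptothecin in parent cells (x axis) and in knockout cells (y axis) for each of the 47 genes, with bars of 1 SE, a dotted line of equal responses and colours for the genotypes in which the change was called. IRF7 lies below the line, at 1.99 and 0.98, and CMPK2 lies above it, at -0.29 and 0.27.

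Whether the genotypes responded differently was tested by subtracting the response of parent cells from that of knockout cells within the model. Of the 47 genes, 4 were called (8.51%), 3 higher and 1 lower, where 6.32% of all genes tested were called, 1.84% higher and 4.47% lower. The share of the 47 was thus near that of all genes, and most genes called in 1 genotype and not in the other were not called here. With library size alone the split was 6 higher and 1 lower. The median difference was 0.18, against 0.02 over all genes.

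IRF7 had the larger rise in parent cells, with a difference of -1.01 ± 0.13 on the log2 scale (adjusted p = 0.000121). The first parent control library did not decide it, since the difference was -0.91 (adjusted p = 1.51e-06) without that library. CMPK2 (chr2:6980700-7006765 in hg19) was the only gene of the 47 called in opposite directions in the 2 genotypes. It went from 38.3, 35.9 and 34.8 CPM to 29.4, 29.0 and 30.8 CPM in parent cells, and from 29.4, 29.0 and 29.8 CPM to 35.0, 35.5 and 35.6 CPM in knockout cells. The treated parent libraries and the untreated knockout libraries thus covered nearly the same range. Its difference was 0.56 ± 0.09 (adjusted p = 0.000597) and stayed called in all 18 alternatives tried.

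BST2 and TRIM25 were nearer to the threshold. BST2 was at 30.0, 30.1 and 30.8 CPM in untreated and 29.6, 30.6 and 26.0 CPM in treated knockout cells. These groups overlapped, in contrast to parent cells, and knockout minus parent was 0.41 ± 0.11 (adjusted p = 0.0333), a call that was lost in 9 of 18 alternatives. TRIM25 was at 72.8, 75.9 and 77.3 CPM in untreated and 74.3, 76.5 and 80.0 CPM in treated parent cells, and at 75.0, 76.5 and 82.4 CPM against 99.0, 93.7 and 119 CPM in knockout cells. Its difference was 0.39 ± 0.11 (adjusted p = 0.0478), a call that was lost in 11 of 18 alternatives. Of genes not called, IFIH1 came near in the direction of IRF7, at 7.99, 9.22 and 6.37 CPM in untreated and 8.69, 10.3 and 7.69 CPM in treated knockout cells. Its difference was -0.56 ± 0.19 (adjusted p = 0.101), and without the first parent control library it was -0.68 ± 0.17 (adjusted p = 0.00553). In intron reads, described below, IFIH1 rose by 0.85 in parent cells (adjusted p = 6.89e-06) and by 0.65 in knockout cells (adjusted p = 0.00064). The difference in intron reads was -0.2 and was not called (adjusted p = 0.564). Leaving out that library raised the number of called differences from 3 to 8 higher and from 1 to 2 lower, while the share of all genes tested rose to 5.1% higher and 9.3% lower.

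Before any drug, knockout cells held less RNA of many interferon-stimulated genes than parent cells. Of the 47 genes, 16 were lower and 3 higher (19 of 47, or 40.4%), where 15.7% of all genes tested were called, 7.44% lower and 8.26% higher. The median difference was -0.18 on the log2 scale, against -0.01 over all genes. In 21 genes every untreated knockout library was below every untreated parent library and in 5 above, where 16.3% and 16.1% of all genes tested were so separated. This comparison shares its parent and knockout control libraries with both responses, so a low control value also enters the response of the same genotype.

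**Figure D3:**
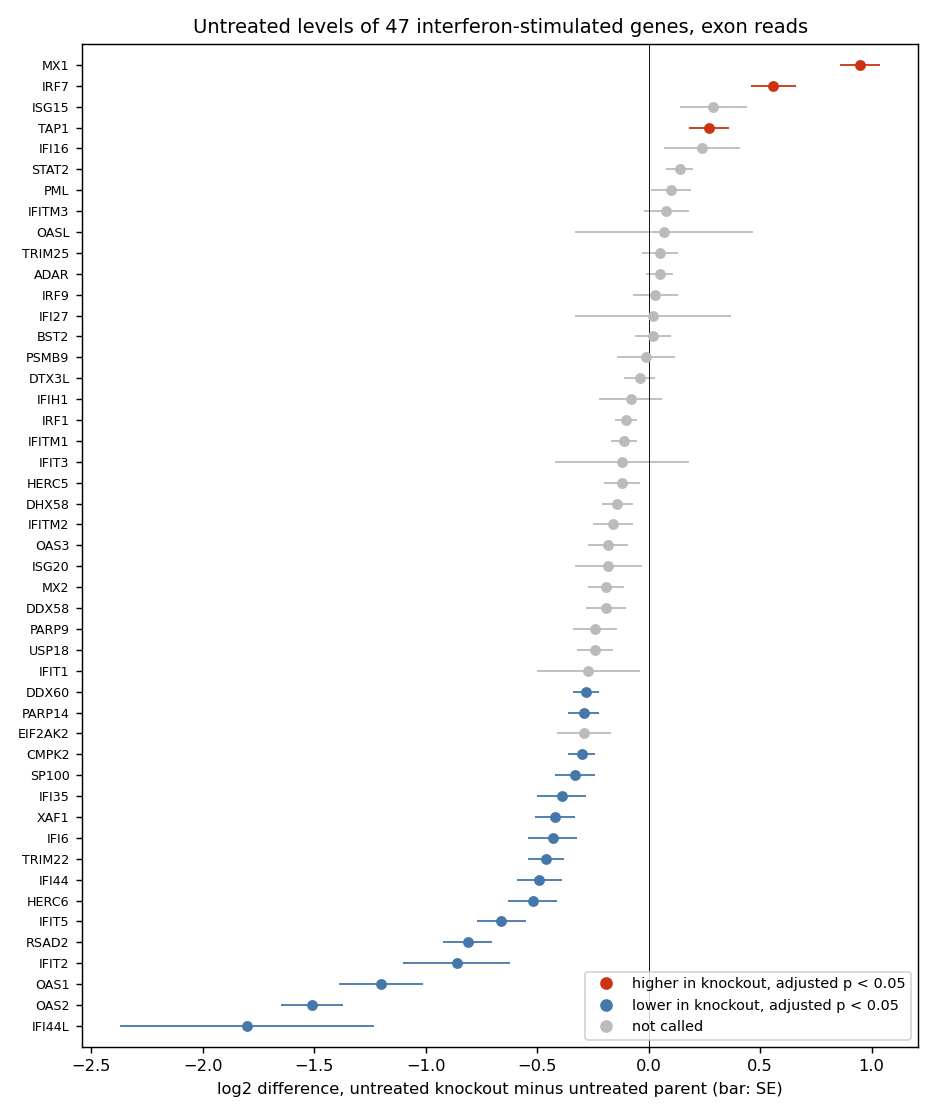
Log2 difference in exon reads, untreated knockout minus untreated parent cells, for each of the 47 genes in order of size, with bars of 1 SE and colours for called genes. MX1 is highest at 0.95 and IFI44L, OAS2 and OAS1 are lowest at -1.80, -1.51 and -1.20.

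The largest well-covered differences were in the OAS cluster on chromosome 12. OAS2 was at 7.71, 8.37 and 7.56 CPM in untreated parent cells and at 3.13, 2.27 and 2.93 CPM in untreated knockout cells, 2.84-fold lower (log2 difference -1.51 ± 0.14, adjusted p = 9.42e-07). OAS1 was at 4.38, 3.36 and 3.49 CPM in parent and 1.93, 1.42 and 1.57 CPM in knockout cells, 2.3-fold lower (-1.20 ± 0.19, adjusted p = 0.000242). Both genes were also lower in every treated knockout library than in every treated parent library, at 2.57 to 3.36 against 5.77 to 6.71 CPM for OAS2. OAS3, the third gene of the cluster, had a log2 difference of -0.18 (adjusted p = 0.23), which was -0.29 (adjusted p = 0.00156) without the first parent control library. OAS1 and OAS2 overlap RP1-71H24.1, and in the part of OAS1 that no other gene shares, 13.4% of its exon length, the difference was -1.47 (adjusted p = 0.00487).

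RSAD2 was at 6.26, 6.98 and 7.44 CPM in untreated knockout cells, below the 11.2 to 12.5 CPM of parent cells, a log2 difference of -0.81 ± 0.11 (adjusted p = 3.7e-05). IFIT2 and IFIT5 were lower too, by log2 differences of -0.86 ± 0.24 (adjusted p = 0.0204) and -0.66 ± 0.11 (adjusted p = 0.000315). The IFIT2 call was lost without the first parent control library (-0.70, adjusted p = 0.0597), and IFIT5 had -0.55 without it. HERC6, a ligase related to the ISG15 ligase HERC5, was at 7.55, 6.27 and 6.72 CPM in parent and 4.65, 5.18 and 4.58 CPM in knockout cells (-0.52 ± 0.11, adjusted p = 0.0039).

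Of the IFI genes and XAF1, an antagonist of apoptosis inhibitors, 5 of 6 were lower in untreated knockout cells. IFI44L was at 0.476, 0.134 and 0.345 CPM in parent and at 0.117, 0.0394 and 0.125 CPM in knockout cells (-1.80 ± 0.57, adjusted p = 0.0391). These rest on few reads, and the call was lost without the first parent control library (-1.32, adjusted p = 0.174). IFI44 (-0.49), IFI6 (-0.43), XAF1 (-0.42) and IFI35 (-0.39) had adjusted p-values of 0.00305, 0.0137, 0.00383 and 0.0222. IFI6 lost its call in 4 and IFI35 in 3 of 19 alternatives, in each case also without single libraries (parent control 2 or knockout control 3 for IFI6, knockout control 1 or 3 for IFI35). TRIM22 (-0.46, adjusted p = 0.000502), SP100 (-0.33, adjusted p = 0.0169), CMPK2 (-0.30, adjusted p = 0.00205), PARP14 (-0.29, adjusted p = 0.00685) and DDX60 (-0.28, adjusted p = 0.00484) completed the lower genes, and SP100 lost its call in 5 of 19 alternatives, also without knockout control 1 or 3.

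Against this direction, MX1 (chr21:42792230-42831140 in hg19) was higher in knockout cells. Untreated parent libraries had 8.18, 7.11 and 7.56 CPM and untreated knockout libraries 14.3, 15.3 and 14.6 CPM, a 1.93-fold difference (log2 0.95 ± 0.09, adjusted p = 6.12e-07). MX1 was highest of all in treated knockout cells, and the 4 groups did not overlap. IRF7 was higher by 0.56 ± 0.10 (adjusted p = 0.000578), whereas its treated knockout libraries, at 16.3 to 19.8 CPM, were all below the treated parent libraries, at 23.5 to 25.4 CPM. TAP1, a peptide transporter of antigen presentation, was higher by 0.27 ± 0.09 (adjusted p = 0.0482), a call lost in 11 of 18 alternatives, among them the fit without the first parent control library (0.14, adjusted p = 0.0524). IFI16 had a log2 difference of 0.24 (adjusted p = 0.392), which was 0.55 (adjusted p = 9.67e-11) without the first parent control library.

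Intron reads come largely from RNA that has not yet been spliced, unless exons of another gene lie within the intron. IFITM2, whose model spans IFITM1, and PSMB9, whose model spans TAP1, may count such reads. Intron reads were fitted apart over 19908 genes. IFIT2 did not pass the low-count filter there, which left 46 of the 47 genes. In parent cells 7 were higher and 14 lower after camptothecin (12.1% and 14.2% of all genes tested, 26.3% together), in knockout cells 6 and 6 (7.85% and 9.05%, 16.9% together; 8 and 3 of 46 with library size alone), for the difference of responses 2 and 1 (3% and 2.81%, 5.82% together), and between untreated cells 2 and 8 in knockout against parent (8.17% and 6.43%, 14.6% together). Of the 14 genes called lower in parent exon reads, 9 were also called lower in intron reads. These were the 4 membrane restriction factors, CMPK2, RSAD2, IFI16, DHX58 and SP100. IFITM1 lies within the model of IFITM2, so the intron reads of these genes are not independent of each other, and reads of IFITM1 exons may count as IFITM2 introns. Of the intron length, 0% in IFITM1, 62.6% in IFITM2 and 14.5% in IFITM3 was unique to the gene. With reads unique to the gene, IFITM3 lost its intron call. Of the 10 genes called higher in exon reads, IRF7, IFIH1, MX1 and IFI27 were called higher in intron reads as well. Of these intron calls, that of IFIH1 was kept in all 18 alternatives, while IRF7 lost it in 6, MX1 in 10 and IFI27 in 3. Without the first parent control library the intron calls of IRF7 (0.64, adjusted p = 0.115), IFI27 (0.66, adjusted p = 0.126) and IFITM3 (-0.28, adjusted p = 0.184) were lost.

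**Figure D4:**
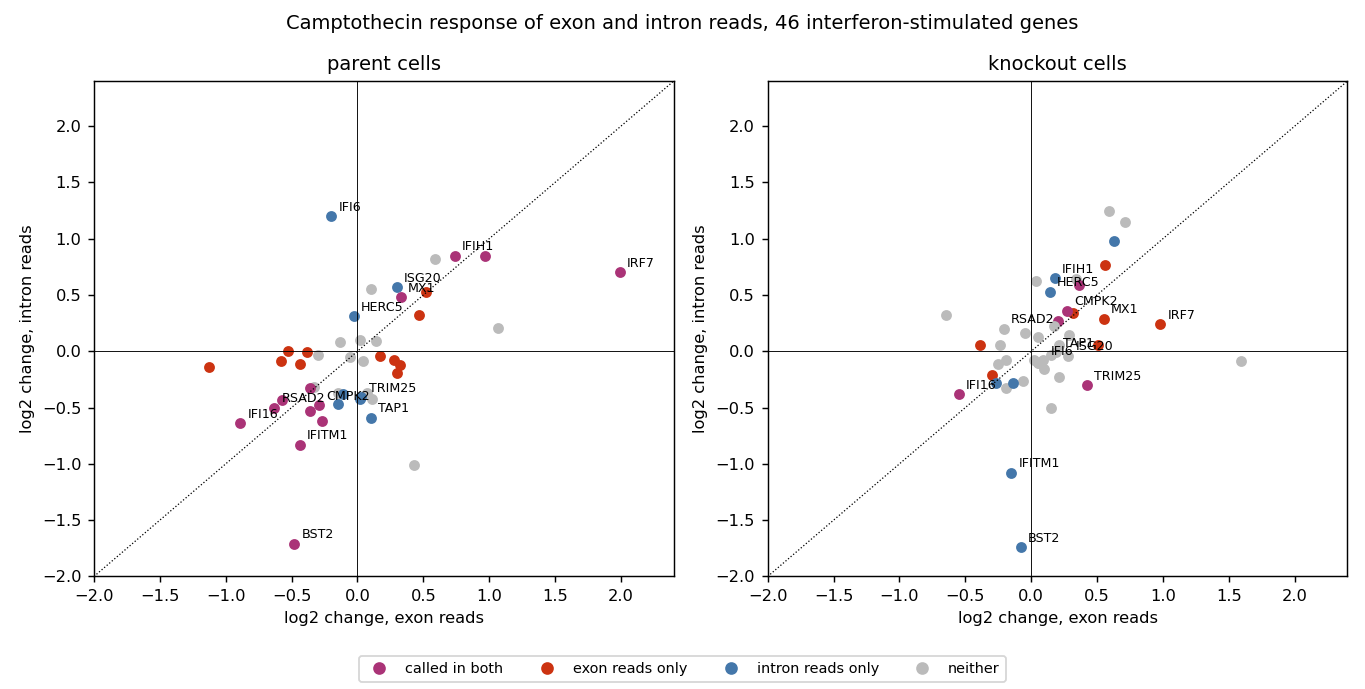
Log2 change in exon reads (x axis) against log2 change in intron reads (y axis) after camptothecin for the 46 genes tested in both, parent cells left and knockout cells right, with a dotted line of equal change and colours for the kinds of reads in which a gene was called in either direction. BST2 lies lowest on the intron axis in both genotypes, at -1.71 and -1.74, while its exon change was -0.48 in parent and -0.08 in knockout cells.

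Exon and intron reads differed in several genes, of which IFITM1 and TAP1 have no intron stretch of their own. IFITM1 introns fell in knockout cells by 1.08 ± 0.16 (adjusted p = 6.24e-05), where its exons had -0.15 (adjusted p = 0.14). TAP1 introns fell in parent cells by 0.59 ± 0.13 (adjusted p = 0.00212), where its exons had 0.10. HERC5, the ISG15 ligase, rose in introns of both genotypes, by 0.31 (adjusted p = 0.0263) and 0.53 (adjusted p = 0.000895), and PML fell in introns of both, by 0.47 (adjusted p = 0.000323) and 0.28 (adjusted p = 0.033), while neither was called in exons with all 12 libraries. Without the first parent control library, PML exons were called in parent cells (-0.23, adjusted p = 0.00571) and HERC5 exons in knockout cells (0.15, adjusted p = 0.0268). The HERC5 intron call in parent cells was lost in 4 of 18 alternatives. That of PML in knockout cells was lost in 5 of 18. BST2 introns went from 4.17, 5.83 and 4.40 CPM to 1.33, 1.74 and 1.29 CPM in parent cells and from 5.71, 3.18 and 3.47 CPM to 1.22, 1.40 and 1.07 CPM in knockout cells. They thus fell in both genotypes, with log2 changes of -1.71 ± 0.26 (adjusted p = 3.33e-05) and -1.74 ± 0.28 (adjusted p = 0.000108), and the difference was -0.03 ± 0.38 (adjusted p = 0.98), where that in exon reads was 0.41. TRIM25 introns fell in parent cells by 0.41 (adjusted p = 0.000393), where its exons were not called. In knockout cells they had a log2 change of -0.30 ± 0.08 (adjusted p = 0.0106), opposite to the rise in its exons, which was 0.38 (adjusted p = 0.00111) in exon stretches that no other gene overlaps. IFI6, a small mitochondrial protein, had introns at 2.39, 1.57 and 3.02 CPM in untreated and 5.57, 5.52 and 4.97 CPM in treated parent cells. In knockout cells IFI6 introns were at 2.31, 2.15 and 2.02 CPM untreated and 2.03, 1.76 and 2.35 CPM treated. Treated parent libraries alone were high, and the responses differed by -1.29 ± 0.34 (adjusted p = 0.0257), while exon reads of IFI6 were not called in either genotype. That call was lost when any 1 of 6 libraries was left out.

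CMPK2 introns followed its exons, with a difference of responses of 0.84 ± 0.16 (adjusted p = 0.00195). Its neighbour RSAD2 had 0.70 ± 0.17 in introns (adjusted p = 0.0137) and 0.42 ± 0.15 in exons (adjusted p = 0.116). IRF7 introns are short and were at 1.61 to 3.19 CPM as group means. They rose by 0.70 ± 0.25 in parent cells (adjusted p = 0.0413), with knockout minus parent at -0.46 ± 0.37 (adjusted p = 0.554). Of the 16 genes lower in exon reads of untreated knockout cells, 7 were also called lower in introns: CMPK2, HERC6, IFI44, OAS1, OAS2, RSAD2 and XAF1. CMPK2 (-0.28, adjusted p = 0.0936) and IFI44 (-0.18, adjusted p = 0.16) lost this intron call without the first parent control library. MX1 introns were higher, by 1.18 ± 0.17 (adjusted p = 2.76e-05).

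The calls were then set beside the ISRE core for the 37 genes with a promoter window. In parent cells 5 of the 21 genes with the core were higher and 6 lower after camptothecin, and 3 and 5 of the 16 without it, where 16.8% and 17.1% of all genes tested were called. In knockout cells these counts were 5 higher and 1 lower of 21, and 2 higher and 1 lower of 16 (7.3% and 9.28% of all genes tested). Untreated knockout cells were lower than parent cells in 6 of 21 and in 7 of 16 (7.44% of all genes tested). They were higher in 2 of 21, MX1 and TAP1, and in 0 of 16 (8.26% of all genes tested). Genes with and without the core thus appeared among both the higher and the lower genes of parent cells.

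The genes that carry the interferon signal were read from a separate list of 57 symbols, some of them older names of the same gene, of which 47 were found and 36 passed the exon filter. Ligands were all but silent: the 6 interferon genes with values, IFNB1, IFNK, IFNW1, IFNL1, IFNL2 and IFNL3, had at most 8 exon reads in any library, and IFNB1 had 0 in 5 of the 12. After camptothecin 13 of the 36 were higher and 8 lower in parent cells, and 8 and 5 in knockout cells, where 16.8% and 17.1%, and 7.3% and 9.28%, of all genes tested were called. The receptor chains IFNAR1 (log2 change 0.20 in both genotypes) and IFNGR1 (0.50 in parent and 0.29 in knockout cells) rose. The other chain of the IFNAR1 receptor, IFNAR2, fell in parent cells by 0.28 in exons (adjusted p = 0.0256) and by 0.44 in introns (adjusted p = 3.2e-05), and IFNGR2 and IL10RB were not called. The receptor kinase JAK1 fell in both, by 0.59 and 0.41 (adjusted p = 1.36e-06 and 0.000189), as did STAT3 by 0.42 and 0.38.

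IRF8, a transcription factor of the same family as IRF7, rose by 2.07 (adjusted p = 6.94e-07) in parent and by 1.0 (adjusted p = 0.00352) in knockout cells. SOCS1, a feedback inhibitor of the JAK kinases, rose by 1.85 in parent cells (adjusted p = 3.76e-08), and had a log2 change of 0.24 in knockout cells (adjusted p = 0.272), where its untreated level was higher by 1.40. TICAM1, the adaptor of TLR3, rose by 1.40 (adjusted p = 4.26e-06) and MB21D1, the DNA sensor cGAS, by 0.67 (adjusted p = 8.02e-06) in parent cells. For SOCS1, TICAM1, IRF8 and MB21D1 the response was smaller in knockout cells, by differences of -1.61, -1.19, -1.07 and -0.59, all called, and PTPN6, a phosphatase, differed the other way, by 0.45. TBK1, the kinase that activates IRF7 and IRF3, was not called after camptothecin but was lower in untreated knockout cells (-0.88, adjusted p = 0.000314), with ISG20L2, MB21D1 and PTPN2 also lower.

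Of the 47 interferon-stimulated genes, 36 were called in exon reads in at least 1 of the 4 comparisons, where 44.9% of all genes tested were, and 11 in none: ADAR, DDX58, EIF2AK2, HERC5, IFIT3, IRF9, ISG15, ISG20, OASL, PARP9 and PML. These 11 include genes well known to be induced by interferon, such as ISG15 and IFIT3. Some of them were covered by few reads, with 26 to 98 exon reads in a library for IFIT3 and 12 to 48 for OASL. Others were called once the first parent control library was left out. These were ISG20, PARP9 and PML in parent cells, HERC5, ISG15 and PARP9 in knockout cells, and ISG15 for the difference of responses.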

How the data were processed

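Per the file headers, the authors deposited per gene whole-number counts of reads over exons and introns, and the file names mark sorted, duplicate-removed alignments. The submitters' processing notes list hg19, STAR 2.5.4a, Picard 2.9.2, Trimmomatic 0.39 and Trim Galore 0.6.2 and give no roles. How genes were annotated and reads counted, and whether strand was used, is not given in the sources used here. Duplicate removal without molecular identifiers compresses counts of abundant, short transcripts.

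Exon and intron counts were fitted apart with edgeR 4.0.16 in R 4.3.3: filterByExpr, TMM scaling and a robust quasi-likelihood model with a mean per group over all 12 libraries. The common dispersion was 0.0137 for exon and 0.011 for intron reads. Calls are Benjamini-Hochberg adjusted p-values below 0.05 over all genes tested. CPM is the count per 1000000 of the TMM-adjusted library size, and the SE is the unshrunk log2 change divided by the square root of F, so it restates the test. Scripts were tested on simulated data. The 47 genes, the lists and the tests were chosen with earlier results of these data known. Values in every library are given for genes called in exon reads with an absolute log2 change of at least 0.5 in a called comparison, and also for BST2, TRIM25 and ISG15, chosen after their values were seen. Alternatives were DESeq2 1.42.0, scaling by library size alone, no low-count filter, only the groups compared, other read classes, a replicate block and leaving out each library. The values of 1 gene of the pathway list are not reported here.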

Additional observations from a re-analysis of the deposited data

Results flagged for a closer look

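For 6 genes the difference of both camptothecin responses, knockout minus parent, passed the test itself (edgeR, adjusted p below 0.05 over all genes tested). In exon reads these differences were -1.01 for IRF7, 0.56 for CMPK2, 0.41 for BST2 and 0.39 for TRIM25 on the log2 scale. In intron reads they were 0.84 for CMPK2, 0.70 for its neighbour RSAD2 and -1.29 for IFI6. CMPK2 was the only gene for which both kinds of reads passed. The IRF7 and CMPK2 differences in exon reads kept their call in all 18 alternatives, while BST2 kept it in 9 and TRIM25 in 7. The check of single high or low libraries used here needs groups of at least 4, so it was not run on these groups of 3.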

How the results depend on the processing

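Of 60 gene calls in exon reads over the 4 comparisons, 39 kept their direction and their call in every alternative, 21 lost the call in at least 1, and 0 changed sign. Of 46 calls in intron reads, 26 kept it and 20 lost it. In knockout cells, library size alone gave 22 higher and 1 lower in exon reads and 3 lower in intron reads, and it moved the median of all genes to 0.14 in parent and 0.17 in knockout cells. The number lower in knockout cells was 6 with no low-count filter, 9 with only the groups compared and 5 of 37 genes with reads unique to the gene. For the difference of responses, DESeq2, library size alone and no filter each gave 6 higher, and no filter gave 2 lower. Between untreated cells no filter gave 5 higher. Without 1 library at a time, exon counts of higher and lower genes ran from 7 to 12 and 13 to 16 in parent cells, 8 to 17 and 2 to 9 in knockout cells, 1 to 8 and 1 to 2 for the difference, and 2 to 4 and 12 to 18 between untreated cells. Intron counts ran from 3 to 7 and 11 to 14, 2 to 8 and 3 to 6, 1 to 3 and 0 to 1, and 1 to 3 and 6 to 9. The first parent control library gave both upper ends in knockout cells (17 and 9) and for the difference (8 and 2). The difference fell to 1 higher without any treated parent library, any untreated knockout library or the first treated knockout library, and the third untreated knockout library also gave 2 lower. In introns, 3 or 4 were higher in parent cells without parent control 2 or treated parent library 2 or 3. In knockout cells 2 or 3 were higher without knockout control 2 or 3 or treated knockout library 3, and 3 were lower without knockout control 3. The cause of these shifts was not tested. The replicate numbers of the labels did not pair the samples, since deviations of same-numbered libraries correlated at -0.0323 to 0.0326. With the number as a block, exon counts were 11 higher and 14 lower in parent cells, 10 and 3 in knockout cells, 3 and 1 for the difference and 2 and 16 between untreated cells. Intron counts with the block were 7 and 13, 6 and 6, 2 and 1, and 2 and 9.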
